A study of Mus musculus with 12 samples.

Results

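The genes of Polycomb repressive complex 2 (PRC2) were examined in embryonic mouse gonads that lacked or carried the Polycomb gene Cbx2. They were 10 genes, namely Ezh2, Ezh1, Eed, Suz12, Rbbp4, Jarid2, Aebp2, Mtf2, Phf1 and Phf19, of 18193 genes that had a probe set of their own on the array. Every probe set annotated to one of these genes and to no other was used, which gave 34 probe sets of 45037 that were not controls. The 4 groups were XX gonads labelled Cbx2 knockout (KO XX), XY gonads labelled Cbx2 knockout (KO XY), XX gonads labelled wild type (WT XX) and XY gonads labelled wild type (WT XY), each with 3 arrays. All embryos were taken at E11.5, around the time when the early gonad is committed to the testis or the ovary path. Knockout embryos came from matings of Cbx2 heterozygotes, and neither the deleted part of Cbx2 nor the strain is stated in the labels. Gonadal cells, recognised by GATA4 staining and by tissue form, were cut by laser from 30 µm frozen sections, and the tissue of 2 or 3 embryos was pooled for each array. Each pool gave 15 ng of total RNA for 2 rounds of amplification and biotin labelling, so p-values measure the spread between pools and not between embryos.

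PRC2 is the enzyme complex that methylates H3K27, a mark under which developmental genes are kept silent. EZH2 or EZH1 carries the catalytic site and works only with EED and SUZ12, and the histone chaperone RBBP4 completes the core. The core joins either JARID2 and AEBP2 or one Polycomb-like protein (PHF1, MTF2 or PHF19), and these partners set where the complex binds DNA and how active it is. CBX2 belongs to the other main Polycomb complex, PRC1, and its chromodomain reads the H3K27 mark that PRC2 writes. Cbx2 is needed for gonad growth and for testis formation in mice.

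Promoter sequences are shown for Jarid2 and Aebp2, whose signals were higher in KO gonads, and for Ezh2, the main catalytic subunit, as windows from 250 bases before to 50 bases after an annotated start (RefSeq, GRCm38.p6). Capitals mark GC boxes (GGGCGG) and E2F-type letters (TTTCCCGC, TTTCGCGC, TTTGCCGC or TTTGGCGC) found on either strand, which did not overlap in these windows. The Jarid2 window shown lies at chr13:44730524-44730823 on the plus strand, the Aebp2 window with the most CpG at chr6:140624659-140624958 on the plus strand, and the Ezh2 window at chr6:47594981-47595280 on the minus strand.
Jarid2: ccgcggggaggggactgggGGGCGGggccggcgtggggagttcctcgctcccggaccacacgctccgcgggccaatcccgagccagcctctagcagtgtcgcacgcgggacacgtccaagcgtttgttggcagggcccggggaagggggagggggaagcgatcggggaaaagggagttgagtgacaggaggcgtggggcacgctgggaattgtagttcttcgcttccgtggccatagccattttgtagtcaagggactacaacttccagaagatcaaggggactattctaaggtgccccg
Aebp2: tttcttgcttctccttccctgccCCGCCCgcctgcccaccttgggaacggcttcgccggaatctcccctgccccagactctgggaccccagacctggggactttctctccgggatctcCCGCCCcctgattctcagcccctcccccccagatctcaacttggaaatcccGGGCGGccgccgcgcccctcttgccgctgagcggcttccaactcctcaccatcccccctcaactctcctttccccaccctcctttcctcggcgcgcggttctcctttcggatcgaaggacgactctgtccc
Ezh2: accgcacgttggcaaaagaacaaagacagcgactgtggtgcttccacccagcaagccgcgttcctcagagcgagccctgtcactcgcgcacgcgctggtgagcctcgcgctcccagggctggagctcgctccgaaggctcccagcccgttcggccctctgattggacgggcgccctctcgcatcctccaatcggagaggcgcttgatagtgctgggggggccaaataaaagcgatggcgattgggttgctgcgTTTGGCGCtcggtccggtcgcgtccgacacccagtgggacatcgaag
These 3 windows held 24, 21 and 31 CpG for Jarid2, Aebp2 and Ezh2, where the median of all 32851 windows was 7. The Aebp2 window was picked by its CpG count, and the other Aebp2 windows held 4 each. A further Jarid2 window, not shown, held 23. All 10 genes had a window, 14 in all, and 11 of the 14 lay above that median. An E2F-type match was found in the windows of Ezh2, Suz12 and Phf19, beside 2.26% of all windows. GC boxes were found in 9 of the 14 windows, from 7 genes, and in 35.7% of all windows. CCAAT was found in 8 of the 14 windows and in 37.4% of all windows, and CACGTG in 1, that of Rbbp4, and in 7.15% of all windows. A match describes these letters only. The Jarid2 and Aebp2 windows shown held 1 and 3 GC boxes and no E2F-type match, whereas the Ezh2 window held no GC box, 3 CCAAT boxes and 1 E2F-type match.

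Values are on the log2 scale of the authors' RMA normalization, so a difference of 1 is a 2-fold change, and they ran from 2.374 to 15.01 over the series. A value is comparable between groups for one probe set, not between probe sets or genes. The Cbx2 probe set averaged 9.34 ± 0.11 in KO XX, against 8.60 ± 0.16 in WT XX, and 9.45 ± 0.12 in KO XY, against 8.92 ± 0.12 in WT XY (SD, n = 3 each). It was therefore not lower in the arrays labelled KO, and without knowing the deleted part it does not check the labels. KO and WT stand below for arrays labelled so, a choice made from titles and genotype fields, because the source field of every WT sample gives the KO XX name. Xist and Eif2s3y matched the labelled sex on all 12 arrays. WT XX replicate 1 stood apart: its mean correlation with the other 2 WT XX arrays was 0.988 and with the WT XY arrays 0.995, and the main values that move with it are given with and without it.

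Averaged over both sexes, 2 of the 10 PRC2 genes had probe sets that passed the test between KO and WT, and both are partners of the JARID2 and AEBP2 form of the complex. Lcor and Lcorl, outside the 10 but with products that bind PRC2, rose as well and are given below. A rise particular to that form is therefore not shown. Jarid2 rose in KO gonads by 0.47 ± 0.07 and Aebp2 by 0.62 ± 0.11 at their clearest probe sets (log2 difference ± SE, limma, adjusted p = 0.00042 and 0.000889). The catalytic gene Ezh2 was 0.33 ± 0.11 higher without passing (adjusted p = 0.0648), and the core genes Eed, Suz12 and Rbbp4 had differences between -0.12 and 0.20. In counts, 5 of 34 probe sets were called higher in KO, 2 of Jarid2 and 3 of Aebp2, and none lower, at a Benjamini-Hochberg adjusted p under 0.05 over all 45037 probe sets. An unadjusted p under 0.05 was reached by 9 of the 34. The share of all probe sets at that level was not computed, here or for the like counts below. In the averaged comparison it is at least the 17.6% called after adjustment. The called share was 14.7%, beside 17.6% of all probe sets called in either direction and 9.84% called higher in KO, so the number of calls alone does not set the PRC2 genes apart from the array at large. The median difference over the 34 was 0.025, beside -0.012 over all probe sets, and 23 of the 34 were above 0. In bulk tissue, a change in the share of a cell type and a change in RNA per cell cannot be told apart. Leaving out 1 array at a time gave 4 to 9 called PRC2 probe sets, with 9 without WT XX replicate 3, where Ezh2, Ezh1 and Mtf2 were also called, and with 4 without WT XX replicate 1. In these fits 13.7% to 17.6% of all probe sets were called.

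**Figure D1:**
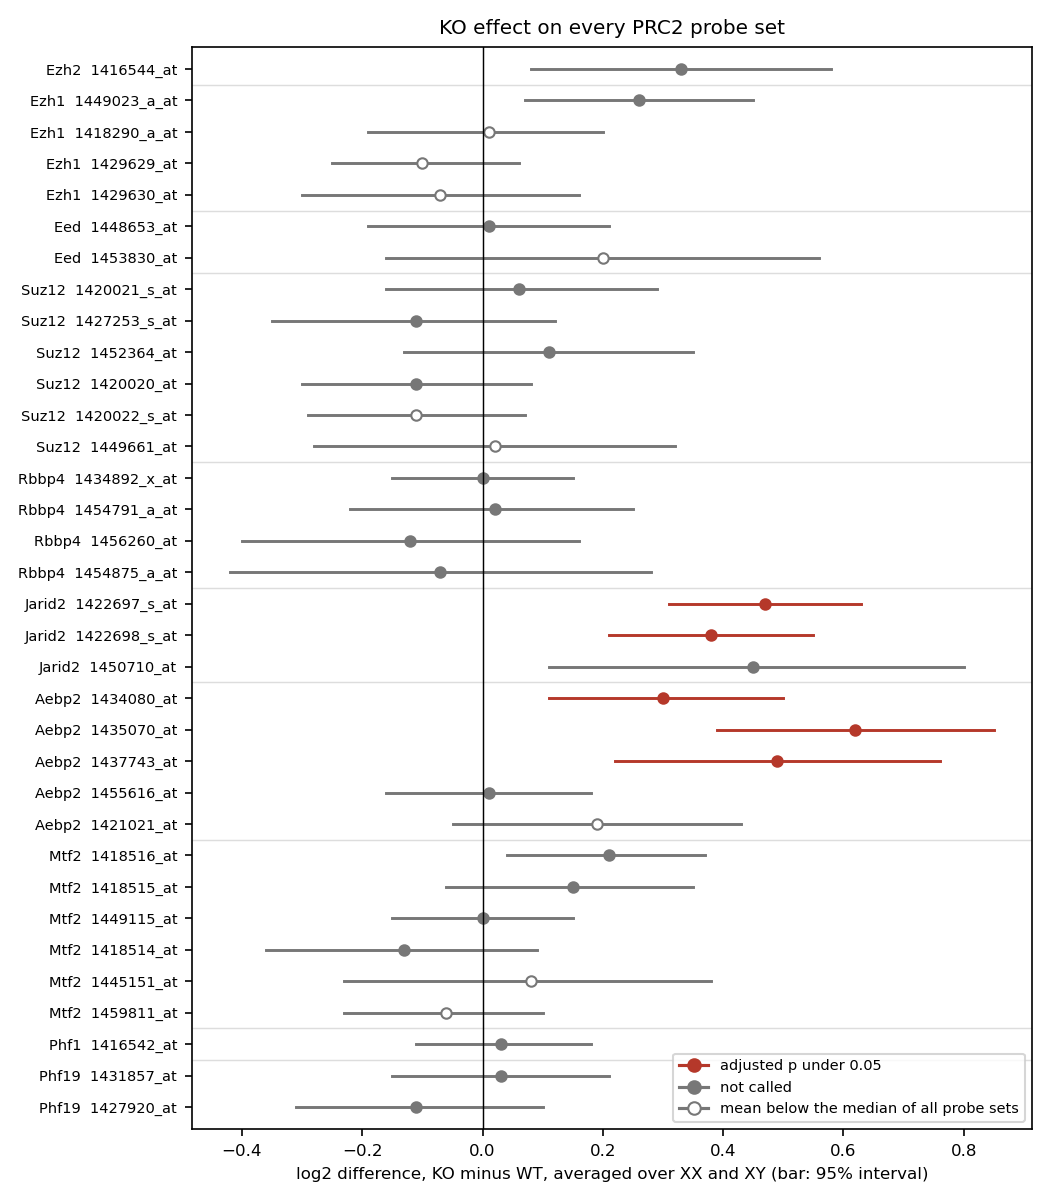
Log2 difference, KO minus WT averaged over XX and XY, of all 34 PRC2 probe sets with 95% intervals; red marks an adjusted p under 0.05 and open circles mark probe sets whose mean lies below the median of all probe sets. The 5 red probe sets belong to Jarid2 and Aebp2 and lie between 0.30 and 0.62, while the probe sets of Eed, Suz12, Rbbp4, Phf1 and Phf19 lie close to 0.

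Jarid2 encodes a DNA-binding and nucleosome-binding partner that helps bring PRC2 to its sites and stimulates it. Its brightest probe set, 1422697_s_at, read 11.78, 11.74 and 11.80 in KO XX, against 11.11, 11.35 and 11.36 in WT XX. In XY gonads it read 11.82, 11.74 and 11.78 in KO, against 11.35, 11.41 and 11.25 in WT. All 6 KO arrays lay above all 6 WT arrays, and the KO arrays spread over a much narrower range than the difference between the groups. The fold change was 1.39 (95% interval of the log2 difference 0.31 to 0.63). In the limma fit of all 12 arrays this probe set was called in each sex. The differences were 0.50 ± 0.10 in XX (adjusted p = 0.00693) and 0.44 ± 0.10 in XY (adjusted p = 0.0158). With only the XX groups fitted, its XX call was lost by limma (adjusted p = 0.0508).

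The 1422698_s_at probe set of Jarid2 read 11.48, 11.70 and 11.73 in KO XX, against 11.25, 11.12 and 11.20 in WT XX. In XY it read 11.73, 11.56 and 11.60 in KO, against 11.48, 11.24 and 11.23 in WT. Within each sex the groups did not overlap, and over both sexes they met at 11.48. It was called on average, at 0.38 ± 0.08 (adjusted p = 0.00414), and in XX, at 0.45 ± 0.11 (adjusted p = 0.0232), but not in XY, at 0.31 ± 0.11 (adjusted p = 0.113). The dimmer 1450710_at had a difference of the same size, 0.45 ± 0.16, and wider spread, and did not pass (adjusted p = 0.0713). Its values were 8.76, 8.38 and 8.77 in KO XX, against 7.68, 8.29 and 8.61 in WT XX, and 8.21, 8.31 and 8.49 in KO XY, against 7.43, 8.25 and 7.95 in WT XY, so its groups overlapped in both sexes. Without WT XX replicate 1 its averaged difference was 0.33 ± 0.14 (adjusted p = 0.146) and that in XX 0.19 ± 0.21. All 3 Jarid2 probe sets thus gave differences between 0.38 and 0.47. The suffix _s_at of both called ones marks probes that may match several transcripts, although the annotation names Jarid2 alone. The XX call of 1422698_s_at was lost without KO XX replicate 2 (adjusted p = 0.0693), KO XX replicate 3 (0.0877) or WT XX replicate 2 (0.0733), and under a further quantile normalization (0.32, adjusted p = 0.136). That call was also lost when only the XX groups were fitted. The XY call of 1422697_s_at was lost without KO XY replicate 1 (adjusted p = 0.0609), KO XY replicate 3 (0.0511) or WT XY replicate 3 (0.0778).

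Aebp2 encodes a zinc finger protein that binds DNA and the SUZ12 scaffold and raises the activity of PRC2. Its probe set 1435070_at read 9.26, 9.17 and 9.07 in KO XX, against 8.17, 8.58 and 8.45 in WT XX. In XY it read 8.85, 8.90 and 8.91 in KO, against 8.07, 8.52 and 8.66 in WT. The lowest KO array lay above the highest WT array, and the KO XX arrays were highest of all. The averaged difference was 1.54-fold (95% interval of the log2 difference 0.39 to 0.85). In XX it was 0.77 ± 0.15 (adjusted p = 0.0047), and in XY 0.47 ± 0.15 without passing (adjusted p = 0.07).

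Aebp2 probe set 1437743_at had values of 8.41, 7.98 and 8.25 in KO XX, against 7.39, 7.62 and 7.96 in WT XX, and of 7.96, 7.91 and 8.37 in KO XY, against 7.85, 7.74 and 7.37 in WT XY. The brightest one, 1434080_at, had 11.18, 11.04 and 11.10 in KO XX, against 10.49, 10.93 and 10.98 in WT XX, and 11.03, 11.03 and 10.96 in KO XY, against 10.67, 10.82 and 10.62 in WT XY. Neither overlapped within a sex, with the smallest gaps in XX, where the highest WT array came within 0.1 of the lowest KO array. Their averaged differences were 0.49 ± 0.13 (adjusted p = 0.0154) and 0.30 ± 0.09 (adjusted p = 0.0324), and neither passed in the XX or the XY comparison. The other 2 Aebp2 probe sets did not pass. Probe set 1455616_at differed by 0.01 ± 0.08 (95% interval -0.16 to 0.18), and the dim 1421021_at by 0.19 ± 0.11 (adjusted p = 0.287). Which transcripts each Aebp2 probe set reads could not be looked up here. The call of 1434080_at was lost without any one of KO XX replicates 1 and 3, KO XY replicates 1, 2 and 3, WT XX replicate 1 and WT XY replicates 1 and 3 (adjusted p between 0.0513 and 0.0793), while that of 1435070_at held without each of the 12 arrays.

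**Figure D2:**
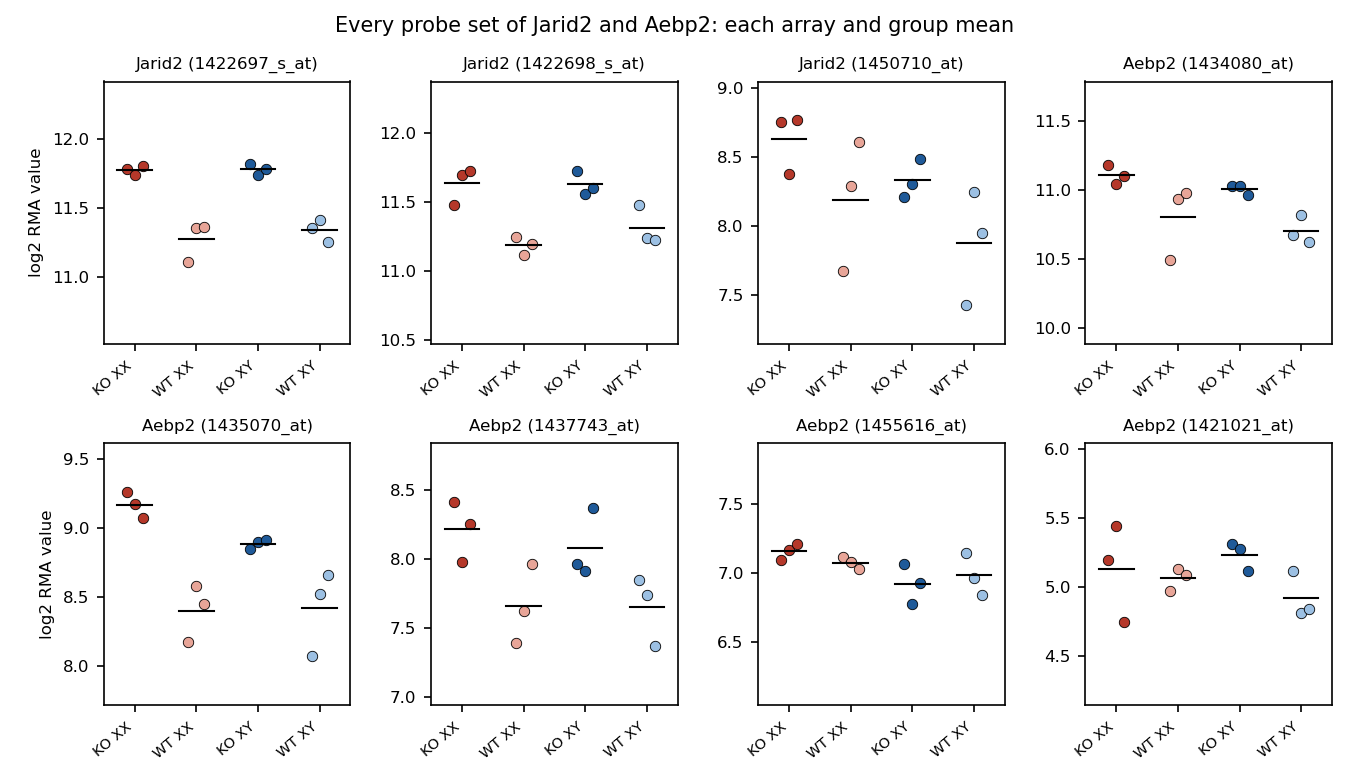
Log2 RMA value of each array (dots) and group mean (line) for the 3 Jarid2 and the 5 Aebp2 probe sets in KO XX, WT XX, KO XY and WT XY; each panel spans 1.9 log2 units and does not start at 0. The KO arrays lie above the WT arrays of the same sex for Jarid2 1422697_s_at and 1422698_s_at and for Aebp2 1435070_at, 1437743_at and 1434080_at, and overlap with them for the other 3.

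Over both sexes, 2 PRC2 probe sets, Jarid2 1422697_s_at and Aebp2 1435070_at, had all 6 KO arrays above all 6 WT arrays, which held for 4.47% of all probe sets. For groups of 3 arrays that do not overlap within a sex, the share over all probe sets was not computed. RNA integrity moved with the XY comparison: the difference between the 3′ and the 5′ Gapdh control probe sets, which grows with RNA decay and with amplification, was 4.05 ± 0.22 in KO XX, against 4.30 ± 0.45 in WT XX, and 4.91 ± 0.12 in KO XY, against 4.13 ± 0.38 in WT XY (SD, n = 3 each). With that measure as a covariate, Jarid2 1422697_s_at and 1422698_s_at and Aebp2 1435070_at were still called on average (adjusted p = 0.00283, 0.00708 and 0.00519). Aebp2 1437743_at and 1434080_at were not (0.37 and 0.20, adjusted p = 0.0777 and 0.161), nor was Jarid2 1422697_s_at in XY (0.28, adjusted p = 0.558). In XX the covariate raised the calls to 8 PRC2 probe sets of Ezh1, Ezh2, Jarid2 and Aebp2. The array at large moved in the same directions. With the covariate 12.3% of all probe sets were called on average, beside 17.6% without it. In XY the share was 2.31%, beside 8.89% without the covariate. In XX it rose from 9.35% without the covariate to a share still under the 12.3% called on average. The directions of these changes were therefore not limited to the PRC2 genes. The rise in XX was proportionally larger for the PRC2 probe sets, from 3 to 8 of 34, than over the array. Whether that larger rise is particular to them was not tested.

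Ezh2 and Ezh1 encode the alternative methyltransferase subunits, EZH2 chiefly in dividing cells and EZH1 also in resting ones. The single Ezh2 probe set, 1416544_at, read 12.06, 11.99 and 12.16 in KO XX, against 11.14, 11.76 and 11.93 in WT XX. In XY gonads it read 11.62, 11.76 and 11.76 in KO, against 11.47, 11.60 and 11.49 in WT. KO arrays lay above WT arrays within each sex, by 0.02 to 0.06 at the nearest, and WT XX replicate 1 was the lowest of the 12. The averaged Ezh2 difference did not pass (0.33 ± 0.11, 95% interval 0.08 to 0.58), and it came to 0.46 ± 0.16 in XX (adjusted p = 0.0972) and 0.20 ± 0.16 in XY (adjusted p = 0.571). Without WT XX replicate 1 the averaged difference was 0.21 ± 0.08 (adjusted p = 0.0851) and that in XX 0.23 ± 0.12 (adjusted p = 0.276), close to the value in XY. Without WT XX replicate 3 the averaged difference passed (0.41, adjusted p = 0.017). It also passed when the probe sets tested were limited to those above the median level (adjusted p = 0.0467), or to 1 value per gene, taken from the brightest probe set (0.0496) or the mean (0.0452).

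Of the 4 Ezh1 probe sets only 1449023_a_at lay above the median of all probe sets. It read 9.45, 9.07 and 9.29 in KO XX, against 8.66, 8.93 and 8.98 in WT XX, and 9.01, 9.04 and 8.88 in KO XY, against 8.95, 8.87 and 8.79 in WT XY. The XX groups did not overlap and the XY groups did. Its averaged difference of 0.26 ± 0.09 did not pass (adjusted p = 0.0606), and the value in XX was 0.41 ± 0.13 (adjusted p = 0.0551). It passed without KO XX replicate 2 (adjusted p = 0.029) or WT XX replicate 3 (0.0495), with only probe sets above the median level (0.0455) and with the brightest probe set per gene (0.0472). The value was 0.21 ± 0.09 without WT XX replicate 1 (adjusted p = 0.131). The other 3 Ezh1 probe sets had mean levels under 4.5 in all groups and averaged differences between -0.10 and 0.01. Of these, 1429629_at was lower in KO XX (3.88, 3.85 and 3.73) than in WT XX (3.97, 3.97 and 3.93) without overlap.

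EED reads H3K27 methylation and passes the signal to the enzyme, and SUZ12 is the scaffold of the complex. Eed 1448653_at read 10.88, 10.58 and 10.63 in KO XX, against 10.39, 10.74 and 10.80 in WT XX, and 10.52, 10.64 and 10.37 in KO XY, against 10.44, 10.62 and 10.56 in WT XY. The groups overlapped in both sexes, and the averaged difference was 0.01 ± 0.09 (95% interval -0.19 to 0.21). The dim Eed 1453830_at differed by 0.20 ± 0.17 (adjusted p = 0.487). The brightest Suz12 probe set, 1420021_s_at, read 10.62, 10.85 and 10.88 in KO XX, against 10.39, 10.98 and 10.97 in WT XX, and 10.60, 10.69 and 10.60 in KO XY, against 10.41, 10.56 and 10.55 in WT XY. WT XX replicate 1 was the lowest of the 12 here too, and the averaged difference was 0.06 ± 0.11 (95% interval -0.16 to 0.29), and -0.04 without that array. The other 5 Suz12 probe sets differed by -0.11 to 0.11 on average, with adjusted p from 0.434 to 0.955.

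RBBP4 binds histone H4 and serves PRC2, the NuRD and Sin3 deacetylase complexes and the chromatin assembly factor CAF-1. Its brightest probe set, 1434892_x_at, read 13.59, 13.62 and 13.67 in KO XX, against 13.67, 13.62 and 13.61 in WT XX. In XY it read 13.95, 13.79 and 13.85 in KO, against 13.96, 13.81 and 13.81 in WT. The averaged difference was 0.00 ± 0.07 (95% interval -0.15 to 0.15), the narrowest interval among the brightest probe sets of the core subunits. The suffix _x_at marks probes that may also bind other transcripts. The other 3 Rbbp4 probe sets differed by -0.12 to 0.02 on average.

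The Polycomb-like proteins bind unmethylated CpG-rich DNA and methylated H3K36 and form the other version of PRC2. Mtf2 had 6 probe sets, and the brightest, 1418516_at, read 11.56, 11.53 and 11.72 in KO XX, against 11.27 and 11.21 in WT XX replicates 1 and 2, with WT XX replicate 3 just under the lowest KO XX array. In XY it read 11.55, 11.49 and 11.45 in KO, against 11.30, 11.41 and 11.37 in WT. KO lay above WT within each sex by a small gap, and the averaged difference of 0.21 ± 0.08 did not pass (adjusted p = 0.0821), except without WT XX replicate 3 (adjusted p = 0.0373). The other 5 Mtf2 probe sets differed by -0.13 to 0.15. Of these, 1418514_at went the other way in XY, with 9.67, 9.54 and 9.51 in KO, all below 9.75, 9.69 and 9.82 in WT. Phf1 1416542_at averaged 6.41 ± 0.03 in KO XX, against 6.44 ± 0.07 in WT XX, and 6.45 ± 0.02 in KO XY, against 6.35 ± 0.07 in WT XY (SD, n = 3 each), a difference of 0.03 ± 0.07 (95% interval -0.11 to 0.18). Phf19 1431857_at averaged 6.92 ± 0.12 in KO XX, against 6.89 ± 0.05 in WT XX, and 6.94 ± 0.23 in KO XY, against 6.90 ± 0.02 in WT XY, and the second Phf19 probe set differed by -0.11 ± 0.10. Over the 10 genes, 25 probe sets lay above the median of all probe sets (5.924) and 9 at or below it. All 5 calls were among the 25, and the 9 had averaged differences of at most 0.20 in size.

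**Figure D3:**
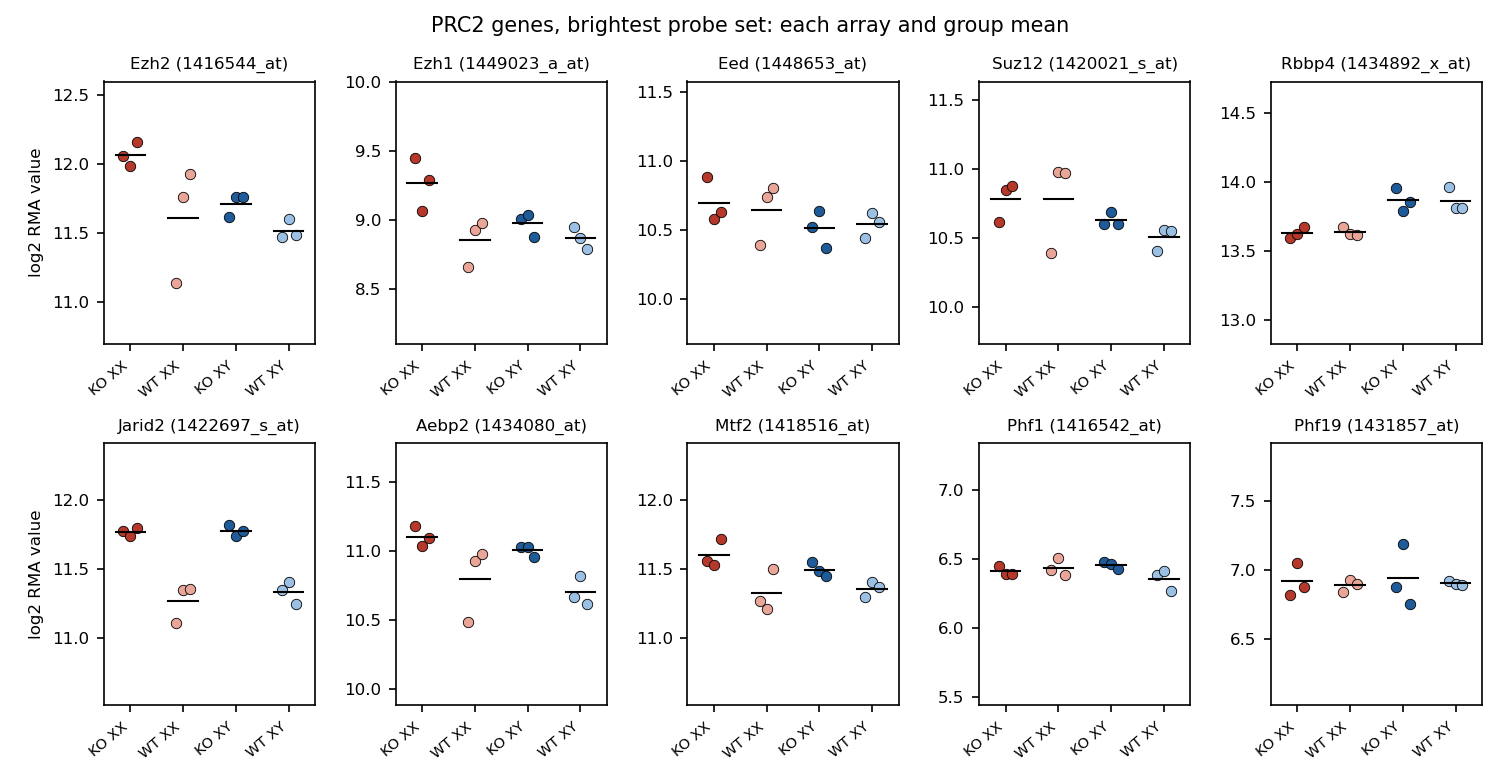
Log2 RMA value of each array (dots) and group mean (line) for the brightest probe set of each of the 10 PRC2 genes in KO XX, WT XX, KO XY and WT XY; each panel spans 1.9 log2 units and does not start at 0. Jarid2, Aebp2 and Ezh2 show KO above WT in both sexes, Ezh2 by small gaps and with WT XX replicate 1 at 11.14, and Eed, Rbbp4, Phf1 and Phf19 little difference.

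By sex, 3 PRC2 probe sets were called in XX (Aebp2 1435070_at and the Jarid2 pair 1422697_s_at and 1422698_s_at) and 1 in XY (Jarid2 1422697_s_at), all higher in KO. These were 8.82% and 2.94% of the 34, beside 5.77% of all probe sets called higher in KO in XX and 4.24% in XY. An unadjusted p under 0.05 was reached by 8 of the 34 in XX and 5 in XY. The shares of all probe sets at that level are at least the 9.35% and 8.89% called there in either direction. The medians over the 34 were 0.053 and 0.063, beside -0.025 and 0.010 over all probe sets. The difference between the KO effects in XY and XX passed for none of the 34 by limma (smallest adjusted p = 0.775, 0 at an unadjusted p under 0.05), and it passed for 0.00666% of all probe sets. For Aebp2 1435070_at it was -0.30 ± 0.21 (95% interval -0.75 to 0.16) and for Jarid2 1422697_s_at -0.06 ± 0.15 (95% interval -0.38 to 0.25), so the calls made in XX and not in XY are not shown to differ between the sexes. The Ezh2 value was -0.27 ± 0.23 (95% interval -0.76 to 0.23). Without WT XX replicate 1, the differences between the sexes were -0.03 ± 0.15 for Ezh2 and -0.18 ± 0.21 for Aebp2 1435070_at. The calls were then 3 in XX and 2 in XY, where Aebp2 1435070_at was added (adjusted p = 0.0399). Of all probe sets, 7.9% and 12.5% were called without that array. Without WT XX replicate 3, 5 were called in XX, beside 8.41% of all probe sets. Without KO XY replicate 1 or KO XY replicate 3 none was called in XY, beside 6.41% and 6.22%.

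**Figure D4:**
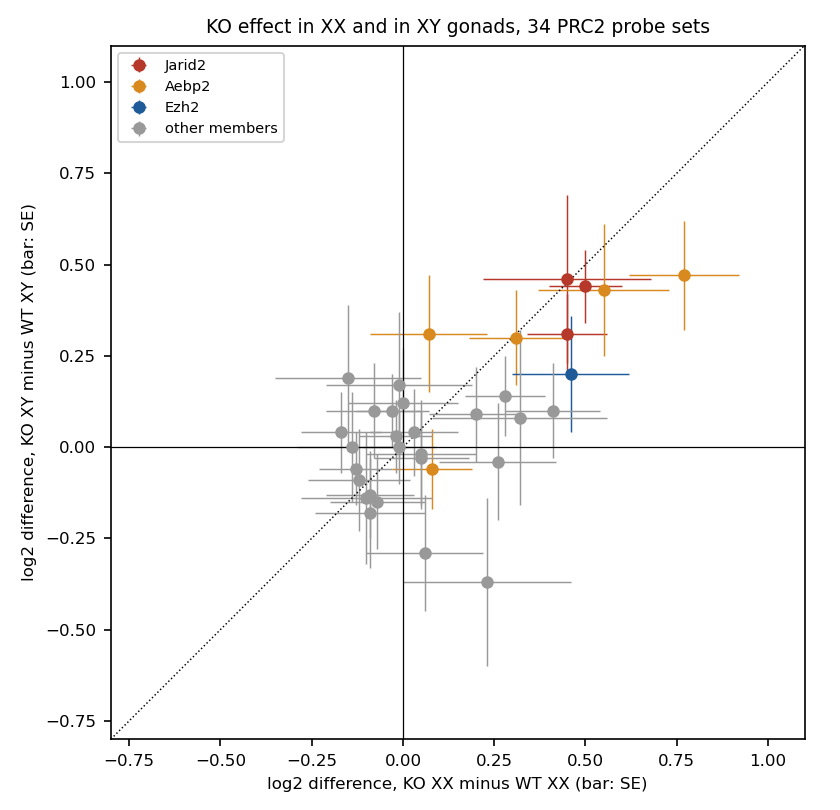
Log2 difference between KO and WT in XX gonads (x axis) and in XY gonads (y axis) for the 34 PRC2 probe sets, with SE bars; the dotted line marks equal differences. Jarid2 probe sets lie near the line between 0.31 and 0.50, Aebp2 1435070_at lies at 0.77 in XX and 0.47 in XY, and most other members lie around 0.

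Between XY and XX gonads no PRC2 probe set passed in KO or in WT by limma. The smallest adjusted p was 0.432 in KO, with 3 of the 34 at an unadjusted p under 0.05, and 0.549 in WT, with 2 of the 34. Of all probe sets, 0.0377% passed between XY and XX in KO and 0.0555% in WT. Rbbp4 1434892_x_at was 0.23 ± 0.10 higher in XY than in XX in KO (adjusted p = 0.432) and 0.22 ± 0.10 higher in WT (adjusted p = 0.561), with XY arrays from 13.79 to 13.96 and XX arrays from 13.59 to 13.67. Ezh2 had XY minus XX differences of -0.36 ± 0.16 in KO (adjusted p = 0.467) and -0.09 ± 0.16 in WT (adjusted p = 0.926). The WT difference of Ezh2 was -0.32 ± 0.12 without WT XX replicate 1 (adjusted p = 0.129), close to that in KO. Without the same array, Suz12 1420021_s_at and 1449661_at passed as lower in WT XY than in WT XX (-0.47 ± 0.12 and -0.78 ± 0.15, adjusted p = 0.0351 and 0.0106), where 5.44% of all probe sets passed.

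The order of the 4 group means differed between the genes. Ezh2 stood highest in KO XX (12.07 ± 0.08), followed by KO XY (11.72 ± 0.08), WT XX (11.61 ± 0.42) and WT XY (11.52 ± 0.07), and the last 3 differed by less than the SD of WT XX. The places of KO XY and WT XX rest on WT XX replicate 1 at 11.14, since the other 2 WT XX arrays (11.76 and 11.93) lay at or above the highest KO XY array (11.76). For Jarid2 1422697_s_at, KO XY (11.78 ± 0.04) and KO XX (11.77 ± 0.03) did not differ beyond their spread, nor did WT XY (11.34 ± 0.08) and WT XX (11.27 ± 0.14). For Aebp2 1435070_at, KO XX (9.17 ± 0.10) stood above KO XY (8.89 ± 0.03), and WT XY (8.42 ± 0.31) and WT XX (8.40 ± 0.21) did not differ beyond their spread.

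Among the brightest probe sets of the 10 genes, Aebp2 and Ezh2 varied together most closely over the 12 arrays (r = 0.91, and 0.90 after group means were removed), followed by Jarid2 and Aebp2 (0.86 and 0.90). WT XX replicate 1 was the lowest of the 12 arrays for Ezh2, Aebp2 and Jarid2 (11.14, 10.49 and 11.11). How far these correlations rest on that array was not tested. Rbbp4 ran the other way from Eed (-0.65 and -0.57). The arrays share their groups and their RNA quality, so these correlations are descriptions. The named genes most like Jarid2 1422697_s_at over the 12 arrays were Gas1, Mxra8 and Col5a1 (r = 0.987 each), which were themselves 0.75 to 0.79 higher in KO on average. Those most like Aebp2 1435070_at were Amer1, Fnip1 and Dtwd2 (r = 0.974, 0.971 and 0.960).

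Related genes were described by the brightest probe set of each gene, among which 12.5% of all 18193 genes were called higher in KO and 9.44% lower, averaged over the sexes. Of 7 further genes listed as PRC2-associated, 4 rose and none fell. The label is not a role shown for each gene, and Scml2 is known chiefly as a PRC1 partner. They were Lcorl (0.82 ± 0.10, adjusted p = 4.64e-05) and Lcor (0.57 ± 0.15, adjusted p = 0.0175), whose loci encode the PALI proteins that bind PRC2, Skida1 (0.89 ± 0.23, adjusted p = 0.0155) and Scml2 (0.61 ± 0.09, adjusted p = 0.000376). Scml2 read 7.68 to 7.97 in KO XX, against 6.96 to 7.34 in WT XX, and 7.62 to 7.94 in KO XY, against 7.14 to 7.27 in WT XY, without overlap. Rbbp7, the close relative of Rbbp4, differed by 0.06 ± 0.07, Ezhip, an inhibitor of PRC2, by 0.07 ± 0.08, and Epop by -0.31 ± 0.13 (adjusted p = 0.121). The median of the 7 was 0.572, beside -0.012 over all genes.

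The enzymes that remove H3K27 methylation did not move together. Uty, the Y-linked relative of Kdm6a, fell in KO XY gonads, where it read 6.99 to 7.34, against 8.0 to 8.39 in WT XY (-1.09 ± 0.13, adjusted p = 7.35e-05). It read under 3.7 on all XX arrays. The X-linked demethylase Kdm6a averaged 8.67 ± 0.20 in KO XY, against 9.53 ± 0.20 in KO XX (adjusted p = 0.0262), and 9.0 ± 0.03 in WT XY, against 9.71 ± 0.05 in WT XX (adjusted p = 0.0976). Its KO minus WT difference was -0.25 ± 0.09 (adjusted p = 0.0663), and that of Kdm6b was 0.22 ± 0.12 (adjusted p = 0.253). Of 12 further chromatin factors, 1 rose, the chromatin remodeller Atrx (0.35 ± 0.11, adjusted p = 0.0469), and none fell. Asxl1 (0.31 ± 0.11, adjusted p = 0.0723), Pagr1a (0.19 ± 0.09) and Kmt2d (0.23 ± 0.13) did not pass. The 12 lay between -0.10 and 0.35, with a median of 0.106.

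Rbbp4 also serves other complexes, and of 18 measured genes of a list of NuRD, Sin3 and CAF-1 genes and related chromatin factors, 2 rose and 4 fell, with a median of 0.019. The list also holds Asf1b, a separate histone chaperone that works with CAF-1, and Dpf2, a subunit of the BAF remodelling complex, and Dpf2 is named after its value was seen (0.09, adjusted p = 0.44). Mta3 (-0.85 ± 0.10, adjusted p = 2.52e-05), Gatad2a (-0.34 ± 0.08) and Asf1b (-0.36 ± 0.09) were among those that fell, and Sap30 (0.48 ± 0.13) was among those that rose. None of 24 measured DNA replication and E2F target genes was called by limma (0 at an unadjusted p under 0.05), and they lay between -0.20 and 0.16, with Cdc6 at 0.14 ± 0.09 and Tyms at -0.20 ± 0.11. Of 8 measured DNA methylation genes, Dnmt3a (0.84 ± 0.11) and Tet2 (0.61 ± 0.13) rose, Dnmt3b fell (-0.56 ± 0.11), and Tet1 did not pass (0.45 ± 0.16). Of 35 measured developmental regulators outside the Hox clusters, of a kind that PRC2 keeps silent in embryonic stem cells, 5 rose and 2 fell, with a median of -0.024. Foxc1 (1.12 ± 0.10) and Alx1 (1.15 ± 0.13) were among those that rose, and Msx1 (-2.64 ± 0.14) and Irx3 (-1.08 ± 0.18) were those that fell.

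**Figure D5:**
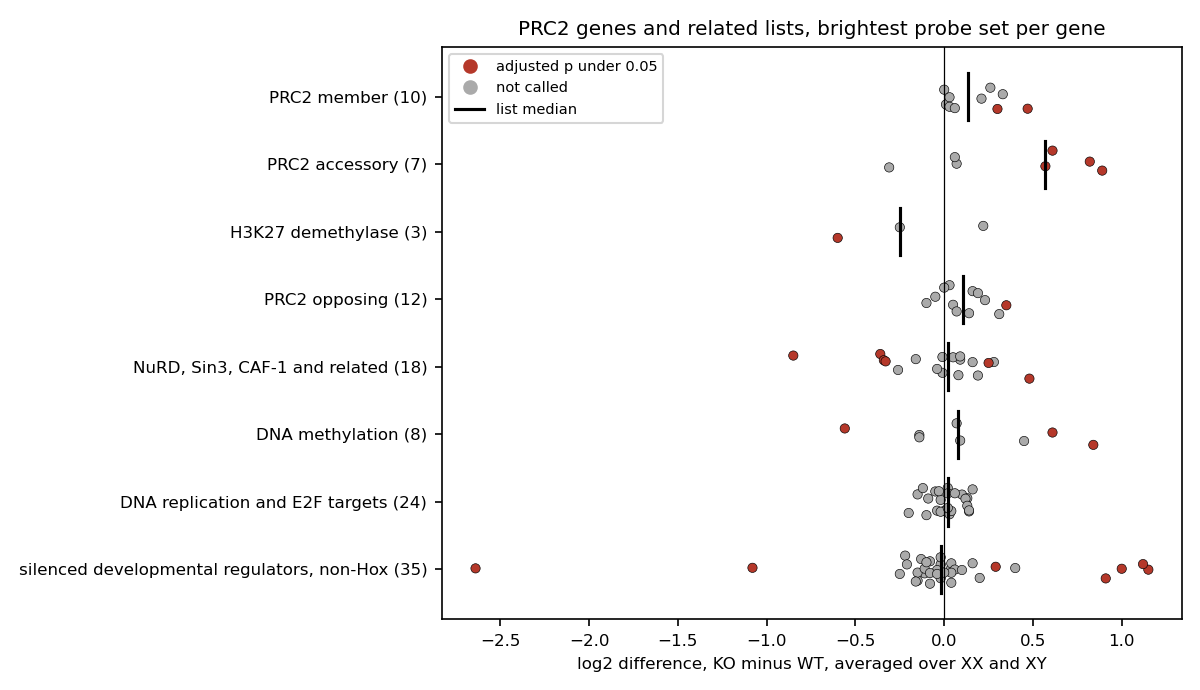
Log2 difference, KO minus WT averaged over XX and XY, of each gene by its brightest probe set, for the PRC2 genes and the related gene lists; red marks an adjusted p under 0.05 and the black bar the median. The 7 genes listed as PRC2-associated reach 0.89, the replication and E2F target genes lie between -0.20 and 0.16, and the developmental regulators spread from -2.64 to 1.15. The labels PRC2 accessory and PRC2 opposing name lists of chromatin factors, not a role shown for each of them.

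Markers of gonadal and of other cells moved between the same groups. Of 8 gonadal ridge markers 5 fell and 1 rose, and the mean log2 level of the list was 9.21 to 9.73 in KO XX, against 10.38 to 10.73 in WT XX, and 9.26 to 9.43 in KO XY, against 10.74 to 10.75 in WT XY. Among the 5 was Gata4 (-1.45, limma adjusted p = 1e-06), whose protein served to recognise the cells for cutting. Whether this changed which cells were cut was not tested. Of 8 coelomic epithelium markers 5 rose and 1 fell, of 13 measured germ cell markers 6 rose, of 12 macrophage markers 4 rose, and of 12 endothelial markers 10 fell. The germ cell list averaged 7.73 to 7.98 in KO XX, against 7.36 to 7.57 in WT XX, and 7.72 to 7.91 in KO XY, against 7.44 to 7.73 in WT XY. The coelomic list averaged 8.96 to 9.24 in KO XX, against 8.13 to 8.22 in WT XX, and 8.99 to 9.04 in KO XY, against 8.28 to 8.40 in WT XY. The macrophage list averaged 6.77 to 7.46 in KO XX, against 6.30 to 6.62 in WT XX, and 6.86 to 7.07 in KO XY, against 6.46 to 6.68 in WT XY, and the endothelial list 6.78 to 7.49 in KO XX, against 7.58 to 7.80 in WT XX, and 6.65 to 7.25 in KO XY, against 7.76 to 7.88 in WT XY. Of 7 measured neural and neural crest markers 3 rose, with list means of 6.62 to 6.76 in KO XX, against 6.14 to 6.46 in WT XX, and 6.58 to 6.74 in KO XY, against 6.23 to 6.26 in WT XY. Of 7 measured mesonephric markers 1 rose and 1 fell, with list means of 5.28 to 5.64 in KO XX, against 5.67 to 5.72 in WT XX, and 5.32 to 5.44 in KO XY, against 5.80 to 5.93 in WT XY. Of 7 measured erythroid markers none was called by limma (2 at an unadjusted p under 0.05), with differences from -0.41 to 0.12 and list means of 9.86 to 10.41 in KO XX, a range that spans the WT XX arrays, and 9.44 to 10.12 in KO XY, against 10.05 to 10.24 in WT XY. The part of these cell types in the Jarid2 and Aebp2 differences was not tested.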

How the data were processed

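The deposited values were log2 values that the authors made with RMA, which corrects background, quantile-normalizes arrays and summarises probes into probe sets. Affymetrix Expression Console and affy are the other tools listed, per the submitters' processing notes, without versions. The deposited log2 values were used as they stand. Of 45101 probe sets, 64 controls were left out, and the platform annotation assigned 34945 to 1 gene, 932 to several and 9160 to none. Precision is limited by the 3 arrays per group, and no detection calls or scan dates were used.

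All 45037 probe sets were fitted together with limma 3.58.1 in R 4.3.3 (lmFit, eBayes, 4 group means, 8 residual degrees of freedom). Contrasts were KO minus WT averaged and in each sex, XY minus XX in each genotype, and the interaction, two-sided, called at a Benjamini-Hochberg adjusted p under 0.05. The procedure was tested on simulated data, where it recovered 64% of shifts of 0.5 and 99% of shifts of 1 in the averaged comparison over 45037 probe sets. Of the simulated calls 5.78% were false. Only 100 probe sets were shifted by each size, with independent noise, whereas 17.6% of probe sets were called in the real data. The recovered shares therefore do not carry over to the real data.

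Named were all members with every probe set and up to 4 genes with the smallest p per other list. The lists of 7 PRC2-associated genes and 3 H3K27 demethylase genes were named in full. The 3 genes most correlated with each of 2 called members were also named. The members and lists were chosen with earlier results of these data known. Alternatives covered normalization, level filters, 1 value per gene, prior, array weights, replicate block, RNA quality, threshold, groups fitted and single arrays.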

Additional observations from a re-analysis of the deposited data

How the results depend on the processing

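The 5 averaged, 3 XX and 1 XY calls moved with several settings. With only probe sets above the median level, 8 of 25 were called on average and 2 in XY. That filter called 30.9% and 17.1% of all probe sets kept, beside 17.6% and 8.89% in the main fit. With the mean of probe sets per gene, 3 of 10 genes were called on average, and with the brightest probe set per gene 4 of 10. These settings called 21.9% and 23.8% of all genes. With the Gapdh covariate 3 were called on average, 8 in XX and 0 in XY. Of all probe sets, 12.3% were then called on average and 2.31% in XY. The XX share lay between the 9.35% of the main fit and that 12.3%. The XX calls thus rose proportionally more for the PRC2 probe sets, from 3 to 8 of 34, than over the array. At a threshold of 0.01, 3 were called on average and 0 in XY, beside 10.1% and 4.49% of all probe sets. At 0.1, 9 were called on average, 6 in XX and 2 in XY, beside 22.9%, 13.6% and 12.8%. Array weights gave 4 in XY, beside 15.4% of all probe sets. Fitting only the groups compared gave 1 in XX, of Aebp2, beside 5.58%. Leaving out 1 array gave 4 to 9 on average, 2 to 5 in XX, 0 to 2 in XY and 0 to 2 between XY and XX in WT, the last reached without WT XX replicate 1. In these fits the shares of all probe sets called were 13.7% to 17.6%, 6.73% to 9.17%, 5.64% to 12.5% and 0.04% to 5.44%, in the same order. With the replicate block, 7 were called on average, with Ezh2 among them (adjusted p = 0.049), and the XX and XY counts stayed at 3 and 1. Of all probe sets, 17.7%, 9.43% and 9.25% were called with that block. The replicate numbers did not pair the samples, since deviations from the group means correlated at 0.023 on average over 18 same-numbered pairs (-0.178 to 0.224) and -0.012 over 36 others. Jarid2 and Aebp2 each had a called probe set on average in every setting run. Of 385 values of single probe sets under alternatives, 335 kept direction and side of the threshold, 24 lost the call, 13 gained it and no called value changed sign. The cause of these shifts was not tested, except that thresholds and filters act by construction. None of the 9 probe sets at or below the median level was called, and whether low signal limits them was not tested.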
